A study of Mus musculus with 14 samples.

Results

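Olig1, Olig2, Ntsr2, Tppp and Acan are markers of glial cells and of the extracellular matrix of the brain, and each was represented by 1 cDNA spot on the array. These 5 genes, of 1380 that could be named among the array's 20160 probes, were found by the name given with each probe. For Ntsr2 and Acan that name is a RefSeq mRNA. For Olig1, Olig2 and Tppp it is an expressed sequence tag, matched as a synonym of the gene. The 5 genes were chosen by their log2 ratio of mutant over control RNA in each mouse's brain. Their brightness and detection in brain against thymus also entered the choice. Those values are therefore given as a description without a test, and only the mutant over control ratio in thymus, which the choice did not use, was tested.

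The samples were brains of 3 and thymi of 4 male mice of genotype mir-34a minus, on the C57BL/6 background and 17 weeks old. Each organ's RNA was set against a pool of organ RNA from control males of the same age and background. Mice 1 to 3 gave both organs, and mouse 4 gave thymus alone. Every mutant RNA was hybridised on 2 arrays with the dyes exchanged, which made 6 arrays of brain and 8 of thymus, and each array carried mutant RNA in one dye and the pool in the other. The labels list 4 control animals for the pools, while the labelling protocol names 6. The labels do not say how the allele was made or whether every cell lacks the miRNA. The RNA came from whole organs, so fewer cells of a type and less RNA per cell cannot be told apart.

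Olig1 and Olig2 are transcription factors of the basic helix-loop-helix family, adjacent in the mouse genome, that direct the oligodendrocyte lineage, the cells that wrap axons in myelin. Tppp, the tubulin polymerization promoting protein, binds and stabilises microtubules and is abundant in myelinating oligodendrocytes. Ntsr2 is a receptor for the peptide neurotensin, coupled to G proteins, and in the brain it is a marker of astrocytes. Acan encodes aggrecan, a large chondroitin sulfate proteoglycan that forms perineuronal nets around neurons in the brain and is the main proteoglycan of cartilage. No protein-coding gene lies between Olig1 and Olig2 in the RefSeq table, a count of 0.

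The mutants are labelled mir-34a minus, and miR-34a pairs with target mRNAs through its seed, bases 2 to 8 of the mature strand. Its sequence is shown here because the genotype label names it. Beside it stand 3 other mature mouse miRNAs that were found in a RefSeq table (GRCm38.p6) with the identical seed. That table need not hold every such miRNA. The 4 sequences run 5′ to 3′ with the seed in capitals.
miR-34a-5p, chr4:150068473-150068494, plus strand: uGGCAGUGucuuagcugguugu
miR-34b-5p, chr9:51103610-51103632, minus strand: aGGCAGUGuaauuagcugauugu
miR-449a-5p, chr13:113037549-113037570, plus strand: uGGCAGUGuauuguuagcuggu
miR-449c-5p, chr13:113036008-113036028, plus strand: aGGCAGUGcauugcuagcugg
The arrays measured mRNA, and no probe was named for any of these miRNAs. The sequences of the cDNA spots and of the 3′ ends of the 5 mRNAs were not used here, so seed matches in them were not sought.

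On the arrays as a whole, 56.3% to 94.4% of probes were detected in brain and 7.96% to 85.4% in thymus, where replicate 8 was lowest and replicate 6 highest. A spot counts as detected where its foreground exceeded the local background by at least 2 standard deviations of the background in 1 channel or more. The authors' scan had flagged 0.812% to 10.7% of spots in brain and 9.32% to 72.4% in thymus. For thymus replicate 1, the tissue label reads brain but title and pool read thymus, which was followed. The number of mice, 3 and 4, limits the precision of every value.

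The 5 spots were dim in both organs, and nearer to local background in thymus by the median over arrays. In brain, 25 of 30 readings of the 5 spots were detected, against 16 of 40 in thymus, and 0 brain readings were flagged, against 15 in thymus. Over all probes detection was also lower in thymus, at 7.96% to 85.4% per array against 56.3% to 94.4% in brain. Flags were more frequent there too, at 9.32% to 72.4% of spots against 0.812% to 10.7%. The lower counts in thymus are therefore not read as a trait of these 5 genes. None was saturated, with 0% of saturated pixels at most.

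Tppp was the clearest of them in brain. Its foreground lay between 2.15 and 3.70 times its local background in the mutant channel of the brain arrays (median 2.41) and between 1.67 and 4.31 times in the pool channel (median 2.23). In thymus the mutant channel gave 1.06 to 2.60 (median 1.34) and the pool channel 1.04 to 2.07 (median 1.41). The Tppp spot was detected on 6 of 6 brain arrays and on 3 of 8 thymus arrays, and it was flagged on 4 thymus arrays. Of all probes, 28.7% were detected on every brain array, and 45% were flagged on at least 4 thymus arrays.

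Acan was also detected on 6 of 6 brain arrays and on 3 of 8 thymus arrays, and it was flagged on 5 thymus arrays. In brain its foreground was 1.51 to 2.81 times background in the mutant channel and 1.68 to 3.03 times in the pool channel. In thymus the spread was wider, with 1.05 to 5.20 in the mutant channel and 1.15 to 3.72 in the pool channel. The brightest readings of this aggrecan spot thus came from thymus arrays, namely replicates 6 and 7.

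The transcription factors and the neurotensin receptor were detected on fewer brain arrays than Tppp and Acan. By median foreground over background in the mutant channel, however, Ntsr2 was close to Acan in brain (2.19 against 2.14). In thymus Ntsr2 lay above Acan (1.55 against 1.35). Olig1 was detected on 5 of 6 brain arrays and 3 of 8 thymus arrays, Olig2 on 4 and 3, and Ntsr2 on 4 and 4. All 5 spots passed the requirement of detection on at least 3 brain arrays, as did 89% of all probes, so passing it does not set them apart. The corresponding requirement of 4 thymus arrays was met by 33.4% of probes and, of the 5, by Ntsr2. Thymus replicates 6 and 7 carried most of the thymus detections, with each gene detected on both except Olig2, which was detected on 1 of them. On thymus replicates 5 and 8, 0 of the 5 spots were detected. Of all probes, 85.4% and 47% were detected on replicates 6 and 7, and 20.5% and 7.96% on replicates 5 and 8. The split between these replicates is thus shared with the array as a whole.

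**Figure D1:**
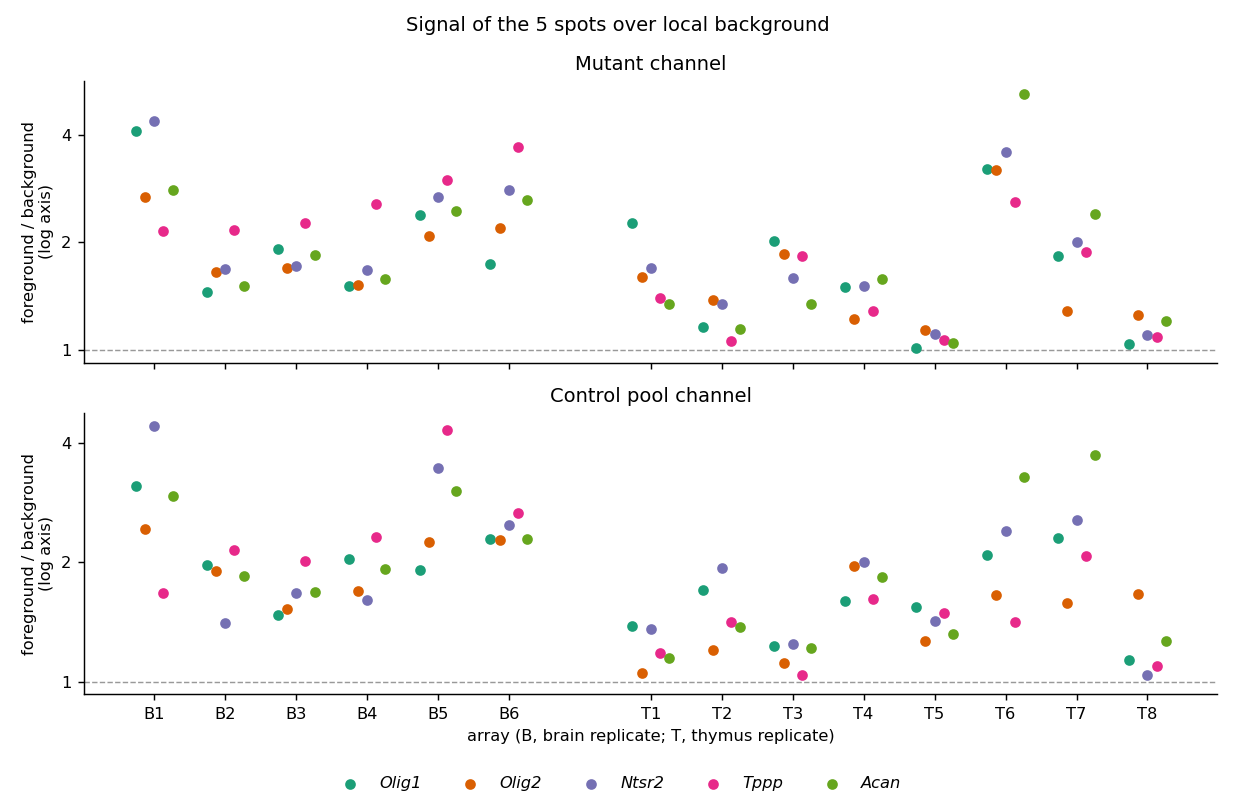
Foreground over local background (log axis) of the 5 spots on each array, mutant channel above and control pool channel below, with 1 point per gene and array and a dashed line where foreground equals background. Most points lie under 4, and the points of thymus replicates 5 and 8 in the mutant channel are among those near the line.

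In brain, the mean ratios of mutant over pool of all 5 genes lay between -0.11 and 0.13 on the log2 scale. Tppp averaged 0.13 ± 0.10 and Acan -0.11 ± 0.04 on the log2 scale of mutant over pool (SD, n = 3 mice each), and the other means had an SD larger than themselves. These means are ratios after background correction and loess normalisation within each array, with the dye-swapped arrays of a mouse averaged. Over all 17591 probes tested in brain, 0 passed a limma adjusted p of 0.05 (0%), and 783 had an unadjusted p under 0.05 (4.45%). The smallest adjusted p among them was 0.845, so the 5 genes stand in a comparison without any call.

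Tppp gave log2 ratios of 0.26 and 0.23 on the arrays of mouse 1, 0.13 and 0.01 on those of mouse 2, and 0.12 and 0.01 on those of mouse 3. The mouse values were 0.24, 0.07 and 0.06. All 6 array values of this microtubule-binding protein were above 0, a pattern that 0.73% of the 15608 probes with 6 brain values showed, and mouse 1 was the highest. Since the choice of the gene used these ratios, nothing further is read from that count. Without mouse 1, the mean was 0.07.

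Acan gave -0.13 and -0.18 on the arrays of mouse 1, -0.16 and -0.01 on those of mouse 2, and -0.15 and -0.02 on those of mouse 3. The mouse values were -0.16, -0.09 and -0.09. All 6 array values of the aggrecan spot were below 0, as they were for 0.705% of probes, and the lowest mouse was again mouse 1. Its spread between mice, an SD of 0.04, was larger than that of 13.8% of probes, while the SD of 0.10 for Tppp was larger than that of 53.3%.

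Olig1 gave 0.70 and -0.11 in mouse 1, -0.01 and -0.09 in mouse 2, and 0.44 and -0.39 in mouse 3, with mouse values of 0.29, -0.05 and 0.03. The mean was 0.09 ± 0.18 (SD, n = 3), with 2 arrays above 0 and 4 below. Brain replicate 1, with 0.70, was the highest reading of this oligodendrocyte factor. Without it the mean was -0.04, with mouse 1 then represented by its Cy5 array alone.

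Olig2, the partner factor, gave 0.18 and 0.19 in mouse 1, -0.33 and 0.33 in mouse 2, and 0.0024 and -0.44 in mouse 3. Its mouse values were 0.19, -0.0021 and -0.22, with a mean of -0.01 ± 0.20 (SD, n = 3), and 4 arrays lay above 0 and 2 below. The 3 mice thus had no common direction.

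Ntsr2 gave 0.02 and 0.66 in mouse 1, -0.39 and 0.58 in mouse 2, and 0.10 and -0.17 in mouse 3. Its mouse values were 0.34, 0.09 and -0.03 and the mean was 0.13 ± 0.19 (SD, n = 3), with 4 arrays above 0 and 2 below. The mean of the astrocyte receptor equalled that of Tppp to 2 decimals, but its array values spread on both sides of 0. Mouse 1 was the highest mouse for Olig1, Olig2, Ntsr2 and Tppp and the lowest for Acan.

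**Figure D2:**
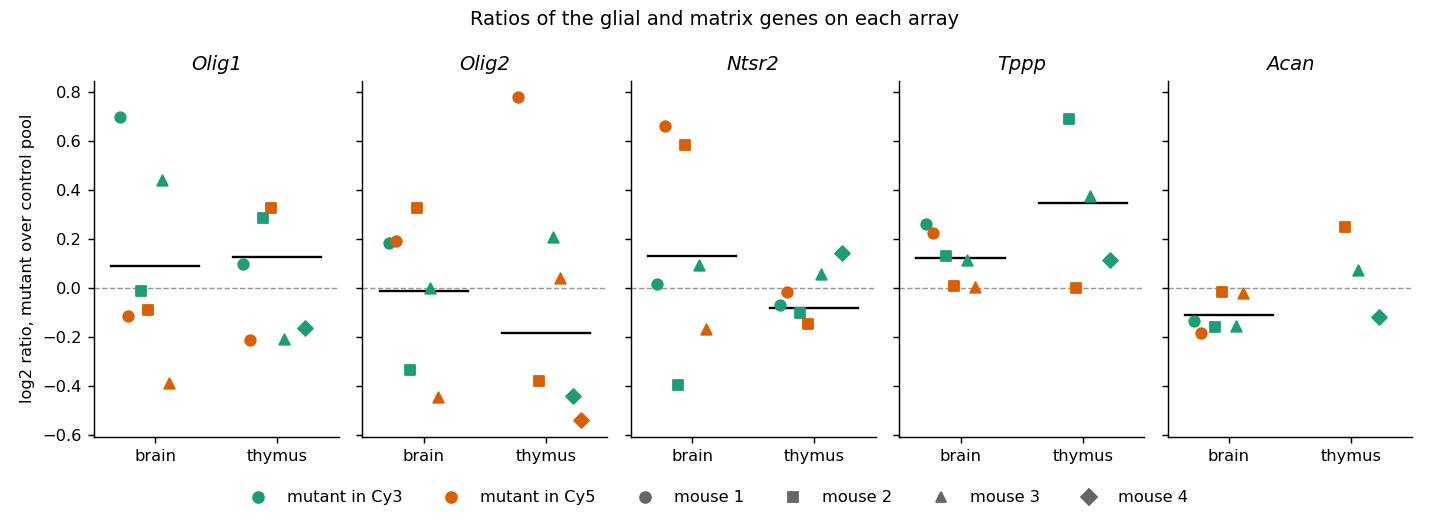
Log2 ratio of mutant over control pool on each array for the 5 genes, brain left and thymus right, with colour for the dye of the mutant RNA, shape for the mouse, a black line for the mean over mice (for Tppp in thymus, the value of mouse 2) and a dashed line at 0. Arrays with a flagged spot are left out, so Acan has 3 thymus points and no thymus mean, and in brain Tppp lies wholly above 0 and Acan wholly below.

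The 2 arrays of a mouse differ in which dye marked the mutant RNA, and for Olig1 the ratio was higher with the mutant in Cy3 in all 3 mice. Olig1 averaged 0.38 on the 3 brain arrays with the mutant in Cy3 and -0.20 on the 3 with the mutant in Cy5. Ntsr2 averaged -0.09 in Cy3 and 0.36 in Cy5, with the Cy5 array higher in mice 1 and 2 and lower in mouse 3. The difference between the orientation means was 0.57 for Olig1 and 0.45 for Ntsr2, larger than for 90.5% and 84% of 15608 probes, where the median over all tested probes was 0.20. It exceeded the mean ratio of both genes.

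Tppp averaged 0.17 with the mutant in Cy3 and 0.08 with the mutant in Cy5, and Acan -0.15 and -0.07, with the same sign in both orientations. These differences, 0.09 and 0.08, were larger than those of 23.9% and 20.4% of probes. Olig2 averaged -0.05 and 0.03, but its mice disagreed, with -0.33 in Cy3 and 0.33 in Cy5 for mouse 2 and the Cy3 array the higher in mouse 3. The close Olig2 means therefore do not show that its ratio was independent of the dye.

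The sign on all 6 arrays did not hold under every processing of the scans. Of 8 settings that recomputed all ratios, 4 kept all 6 arrays on the same side for Tppp and 4 for Acan, against 0 of 8 for each of the other genes. Scaling between arrays, 1 of the 8, cannot change a sign, so its outcome was fixed for all 5 genes. Keeping flagged spots could change little, since 0 brain readings of these spots were flagged. Both settings are among the 4 for Tppp and the 4 for Acan. In the authors' deposited table, with each column centred on its median, Tppp stood at 0.83, 0.94 and 0.68 on the arrays with the mutant in Cy5 and at 0.28, -0.37 and -0.48 on those with the mutant in Cy3. Ratios in the authors' deposited table carry no loess step, and there the Tppp values of the 2 orientations did not overlap. Acan in the authors' deposited table was below 0 on 5 of 6 arrays, with brain replicate 6 at 0.30. The mean direction of Tppp was above 0 and that of Acan below 0 in all 16 alternatives run for each. The filter settings among these changed only which other probes were tested, so they could not move either mean. Since these ratios were used to choose the genes, the count is a description only.

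**Figure D3:**
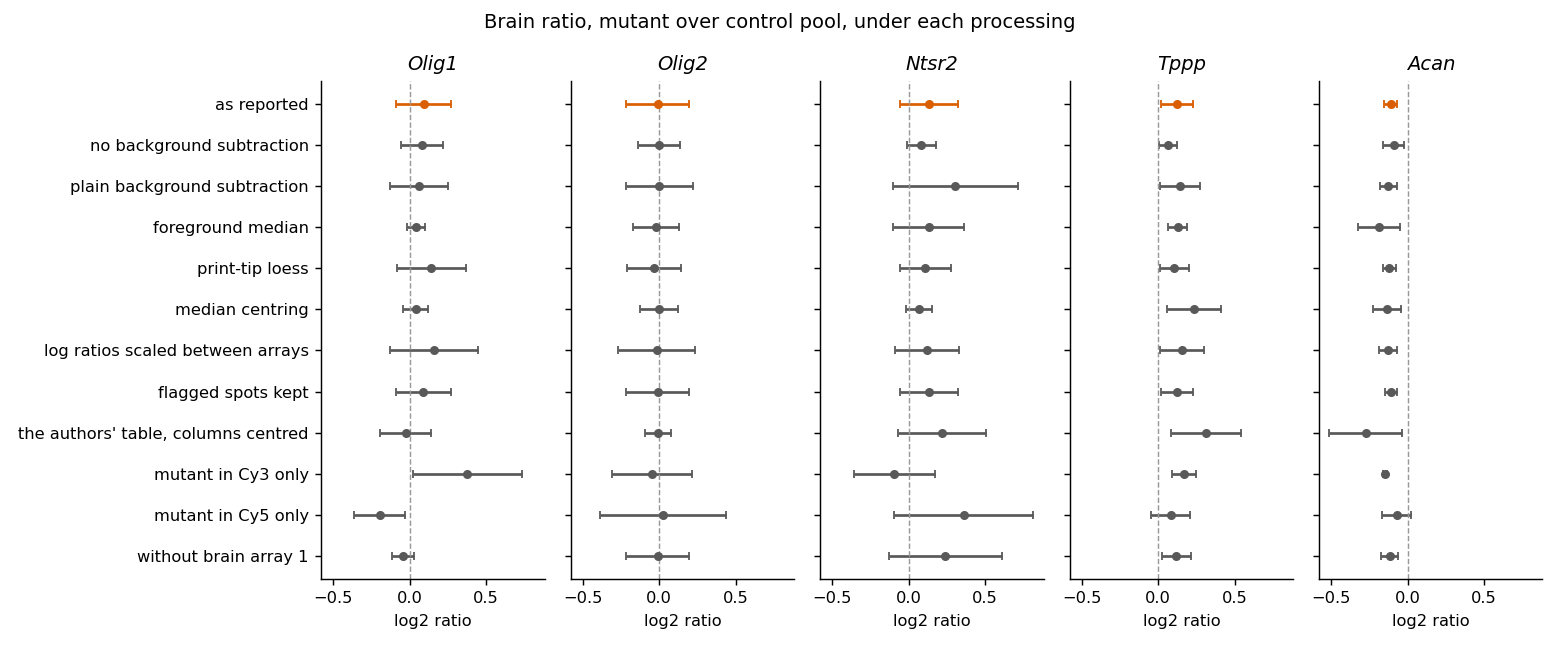
Mean log2 ratio of mutant over control pool in brain for the 5 genes, as reported (orange, top) and under 11 other settings (grey), with bars of 1 SD over the mice and a dashed line at 0. The means of Tppp stay above 0 and those of Acan below, while those of Olig1, Olig2 and Ntsr2 differ in sign between the dye orientations.

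Across the 6 brain arrays the ratios of Tppp and Acan mirrored each other (Pearson r = -0.82), and those of Olig2 and Ntsr2 moved together (r = 0.83). The ratios of the adjacent genes Olig1 and Olig2 had r = 0.41. These are descriptions over 6 arrays of 3 mice that share the pool, the dye orientation and the normalisation, and the pairs were 2 extremes among 10.

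In thymus, where the ratios had no part in the choice, few readings were usable. Ntsr2 alone passed the filter on dim spots. Its usable arrays gave -0.07 and -0.01 in mouse 1, -0.10 and -0.15 in mouse 2, 0.06 in mouse 3 and 0.14 in mouse 4, the last 2 mice with 1 array each. The 2 mice with both orientations averaged -0.08 ± 0.06 (SD, n = 2), with a 95% interval of -0.34 to 0.18 and a limma adjusted p of 0.908. No difference between mutants and pool was found for the receptor, and the interval leaves room for changes of either sign. Mice 3 and 4 were dropped from this fit for a flagged spot on the other array of each. Of 5422 probes tested in thymus, 0 passed the adjusted threshold (0%), with 273 at an unadjusted p under 0.05 (5.04%) and a smallest adjusted p of 0.85.

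The other 4 spots were detected on 3 thymus arrays each and were not tested there. Tppp had 4 usable arrays, at 0.69 and 0.0012 in mouse 2, 0.38 in mouse 3 and 0.12 in mouse 4, all above 0 as in brain. Mouse 2 was the only one with both orientations and had a value of 0.35, and the higher 3 of the 4 readings had the mutant in Cy3. Acan had 3 usable arrays, at 0.25 in mouse 2, 0.07 in mouse 3 and -0.12 in mouse 4, and therefore no mouse with both. The negative direction of brain was thus present in 1 of 3 thymus readings.

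Olig1 in thymus had 3 arrays above 0 and 3 below, and its mice with both orientations, 1 and 2, gave -0.05 and 0.31. Olig2 likewise had 3 above and 3 below, with 0.13 in mouse 3 and -0.49 in mouse 4. The means were 0.13 ± 0.26 for Olig1 and -0.18 ± 0.44 for Olig2 (SD, n = 2 each), smaller than their spread. Their direction was not stable, with -0.05 for Olig1 and 0.05 for Olig2 when flagged spots were kept (n = 4 each). The single readings of Olig2 ran between -0.54 and 0.78, wider than in brain, where they ran between -0.44 and 0.33.

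The second question is in which organ each spot was bright. Tppp was brighter in brain than in thymus, by 0.81 on the log2 scale, and the remaining 4 genes had intensities that overlapped between the organs. Intensity here is the mean log2 of both channels, quantile normalised over the 14 arrays, with flagged spots kept, and it mixes mutant and pool RNA. The median difference over 18161 probes was 0, a value that the quantile normalisation largely sets.

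Tppp stood at 6.71, 7.46 and 7.33 in brains of mice 1 to 3, and at 6.30, 6.37, 6.29 and 6.47 in thymi of mice 1 to 4. The means were 7.17 ± 0.40 in brain (SD, n = 3) and 6.36 ± 0.08 in thymus (SD, n = 4). The lowest brain mouse lay 0.24 above the highest thymus mouse. Mouse values of the organs did not overlap, brain higher, for 9.05% of probes and, brain lower, for 8.88%, and the difference of Tppp was larger than that of 97.8% of probes. Of the 8 thymus readings behind these means, 5 were not detected. With flagged spots left out the difference was 0.66, and without thymus replicates 6 and 8 it was 0.74, and in both cases the highest thymus mouse, at 6.80, passed the lowest brain mouse at 6.71. Brain replicate 1 gave 6.28, the lowest brain reading, and without it the difference was 0.96.

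Acan averaged 6.74 ± 0.05 in brain (SD, n = 3) and 6.75 ± 0.45 in thymus (SD, n = 4), a difference of -0.01. The brains stood at 6.69, 6.74 and 6.79, and the thymi at 6.28, 6.54, 6.84 and 7.33. Brain readings were even, while thymus replicates 6 and 7, at 7.64 and 7.99, exceeded the highest brain array, at 6.82. When flagged thymus spots, of which 0 were detected, were left out, the difference was -0.76. That rule keeps the bright thymus readings alone, so nothing is read from this value. Aggrecan is a cartilage proteoglycan, and whether other tissue came with the thymi was not tested, since no other gene of the 14 in the cartilage list was named on the array.

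Olig1 averaged 6.52 ± 0.28 in brain (SD, n = 3) and 6.62 ± 0.23 in thymus (SD, n = 4), a difference of -0.10. The brains stood at 6.80, 6.50 and 6.25 and the thymi at 6.94, 6.62, 6.42 and 6.49. Olig2 averaged 6.53 ± 0.15 in brain (SD, n = 3) and 6.47 ± 0.09 in thymus (SD, n = 4), a difference of 0.06. Neither lineage factor separated brain from thymus on these spots. Each was detected on only 3 of 8 thymus arrays, so most thymus values here are undetected readings put on the common scale. A lack of difference between the organs is therefore not read from the overlap.

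Ntsr2 stood at 6.82, 6.53 and 6.93 in brain and at 6.91, 6.62, 6.65 and 6.72 in thymus. The means were 6.76 ± 0.21 in brain (SD, n = 3) and 6.72 ± 0.13 in thymus (SD, n = 4), a difference of 0.04. By brightness, Tppp was the only spot of the 5 whose mouse values lay apart, and the label of glial and brain matrix genes could not be checked from the overlapping spots of the other 4.

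**Figure D4:**
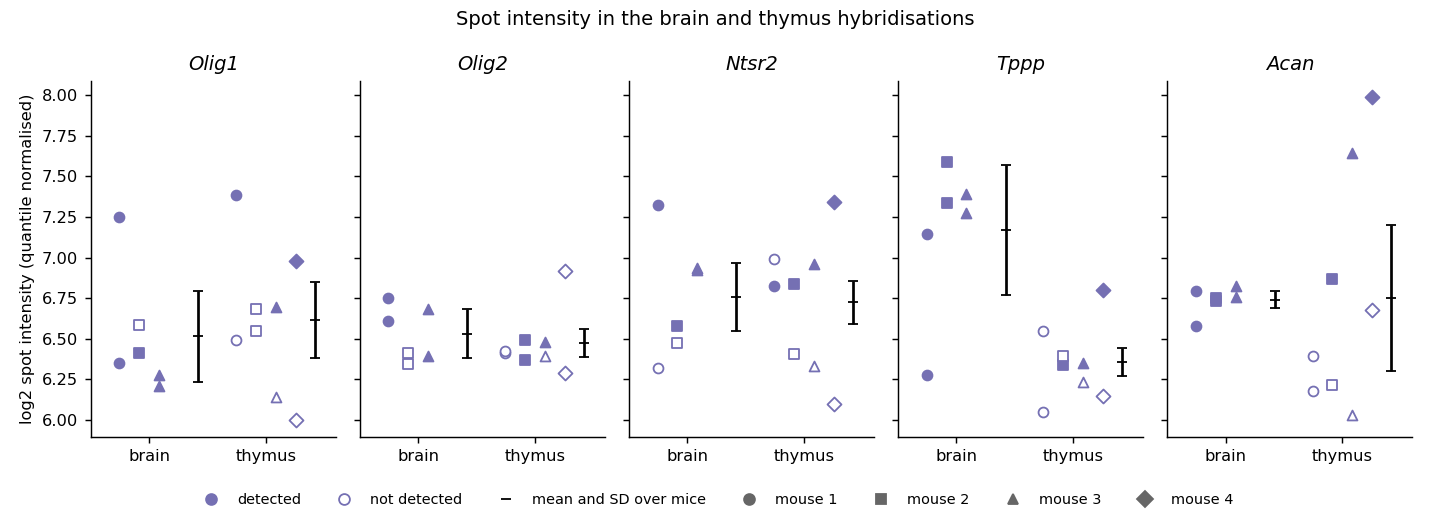
Quantile normalised log2 spot intensity (mean of both channels) of the 5 genes on each array, brain left and thymus right, with filled symbols where the spot was detected, shapes for the mice, and bars for the mean and SD over mice. Tppp lies at 7.17 ± 0.40 in brain and 6.36 ± 0.08 in thymus, and the bars of the other genes overlap.

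The arrays did register organ markers, which gives a scale for these values. Of the neuron list, 6 of 17 genes were on the array, and 3 were higher in brain at a limma adjusted p of 0.05, where 1.32% of all probes were. Stmn2, a tubulin-binding protein of neurons, differed by 1.62 (8.47 ± 0.30 in brain, n = 3, and 6.85 ± 0.09 in thymus, n = 4, SD, limma adjusted p = 0.00278, and 0.0439 with the mouse as a block). Camk2b, a calmodulin kinase subunit, differed by 1.16 and Syp, the synaptic vesicle protein synaptophysin, by 1.15, with limma adjusted p of 0.0345 and 0.0393. With the mouse as a block these were 0.0763 and 0.0955, past the threshold no more. The block makes no use of mouse 4, which gave thymus alone, and leaves fewer degrees of freedom. The median over the 6 genes was 1.16, and Syn1 and Slc17a7, both synaptic vesicle proteins of neurons, were at -0.66 and -0.34 without passing.

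Of the thymocyte list, 4 of 19 genes were on the array and 2 were lower in brain, as were 0.496% of all probes. Satb1, a chromatin organiser of T cells, differed by -1.68 (limma adjusted p = 0.00865, and 0.0700 with the block). Cd8a, a T cell coreceptor, differed by -1.08 (limma adjusted p = 0.0216, and 0.107 with the block). Cd4 and Ptprc stood at -0.14 and -0.31 and did not pass.

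The lists nearest to the 5 genes were thinly covered. Of 48 oligodendrocyte and myelin genes, 5 were on the array, and Gpr17 and Evi2a were the 2 beside Olig1, Olig2 and Tppp. Gpr17, a receptor of oligodendrocyte precursors, had a brain ratio of -0.04 ± 0.06 and Evi2a, a membrane protein encoded within an intron of Nf1, one of 0.02 ± 0.01 (SD, n = 3 each, limma adjusted p = 0.897 and 0.943). Their intensities differed between brain and thymus by 0.11 and -0.35, and 0 of 2 passed the adjusted threshold. No myelin sheath protein was among the 5, so myelin itself was not measured by name.

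Of 45 astrocyte genes, 5 were on the array. Ndrg2, an astrocyte marker, had a brain ratio of 0.04 ± 0.09 and Prdx6, a peroxiredoxin, one of 0.14 ± 0.13 (SD, n = 3 each, limma adjusted p = 0.909 and 0.845). Ndrg2 was brighter in brain by 0.54 without passing (limma adjusted p = 0.219), and Prdx6 differed by -0.20. Gpr37l1, a receptor of astrocytes, was detected on 2 brain arrays and Itih3 on 0, and neither was tested. In thymus Ndrg2 had a ratio of 0.01 ± 0.22 (SD, n = 2 mice).

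Of 33 perineuronal net and brain matrix genes, 5 were on the array, and Cntn1, a cell adhesion molecule of neurons and glia, was the 1 that differed between the organs. It stood at 7.50 ± 0.31 in brain (SD, n = 3) and 6.28 ± 0.09 in thymus (SD, n = 4), a difference of 1.22 (limma adjusted p = 0.00865, and 0.0873 with the block). Its brain ratio of mutant over pool was -0.01 ± 0.07 (SD, n = 3). Crtac1, an extracellular matrix protein, had a brain ratio of 0.02 ± 0.16, and Nptx2, a neuronal pentraxin, one of 0.01 ± 0.02 (SD, n = 3 each). The intensities of Crtac1, Nptx2 and Tnc, the matrix glycoprotein tenascin C, differed between brain and thymus by 0.14, -0.0021 and 0.03. Beside aggrecan, below 0 in every mouse, the 3 list genes tested in brain had 2 means above 0 and 1 below, with a median of 0.01.

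No gene of the remaining lists passed the test in brain. The 3 microglial genes tested lay above 0 (median 0.02), with C1qa, a complement component, at 0.09 ± 0.20 and Csf1r, the receptor of colony stimulating factor, at 0.02 ± 0.23 (SD, n = 3 each). Eng, the endothelial receptor endoglin, stood at -0.14 ± 0.12 (SD, n = 3) and Vwf, von Willebrand factor, at 0.06 ± 0.08 (SD, n = 2). Of the neuron genes, 5 of 6 lay above 0 and 0 passed, with a median of 0.07, while the median of all tested probes was 0.0009. The smallest limma adjusted p over the list genes was 0.845 in brain and 0.850 in thymus, with 0 calls in either. The lists of tubulin polymerization promoting proteins (3 genes), the neurotensin system (8) and neural helix-loop-helix factors (19) held no gene on the array beyond the ones described.

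**Figure D5:**
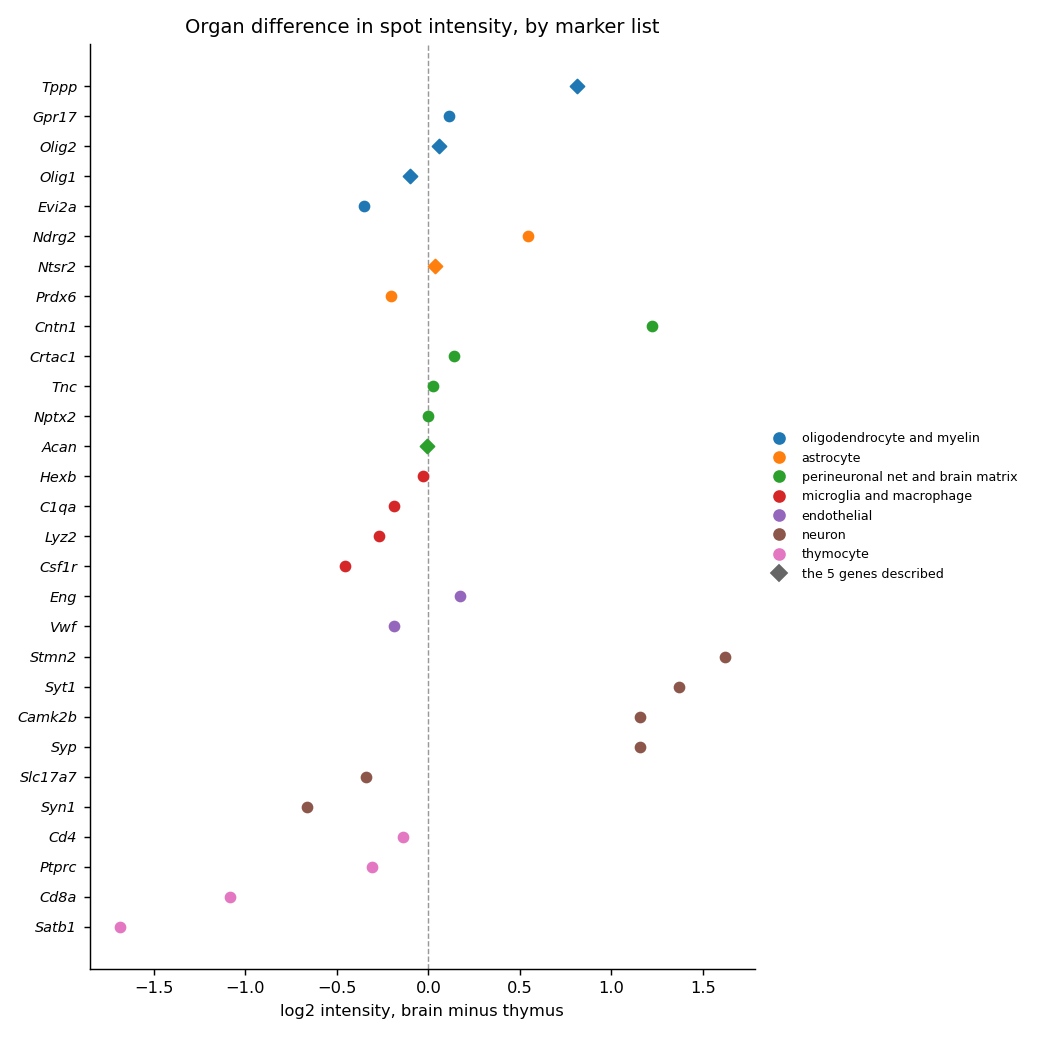
Difference in mean log2 spot intensity, brain minus thymus, for the tested genes of 7 marker lists, coloured by list, with diamonds for the 5 genes described and a dashed line at 0. Stmn2 at 1.62 and Satb1 at -1.68 are the extremes, Tppp at 0.81 lies below Cntn1 at 1.22, and Olig1, Olig2, Ntsr2 and Acan lie within 0.10 of 0.

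Over the 14 arrays, the named genes whose intensity ran most like that of Tppp were Serpini1 (Pearson r = 0.94), Camk2b (0.94) and Lancl1 (0.92), among 1379 genes compared. For Acan they were Abhd8 (0.87), 4933417A18Rik (0.85) and Psen2 (0.82). The closest to Olig1 were Klhdc10 (0.75), Kif17 (0.72) and Ntsr2 (0.71), to Olig2 Ppm1d (0.81), Hils1 (0.73) and Glipr2 (0.72), and to Ntsr2 Stam2 (0.76), Otog (0.74) and Eya3 (0.74). Olig1 and Olig2 had r = -0.21 with each other, and neither was among the 3 closest to the other. These correlations describe arrays that share organ, mouse and brightness, and the largest were found for the gene that differed most between the organs.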

How the data were processed

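RNA of brain and thymus was measured on 2-colour spotted cDNA arrays, with 20 µg of RNA labelled per channel. The scanner tables that the authors deposited hold foreground and local background intensity per spot in the red (Cy5) and green (Cy3) scans, and the percent of saturated pixels, per the file headers, without normalisation. The authors' deposited value table, held here as a score, equals the log2 ratio, mutant over pool, of background-subtracted medians plus a constant per column (99.7% to 99.9% of rows within 0.01). Its column medians run from -1.37 to 0.86, and the origin of the constants is unknown.

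Foreground means were corrected with normexp (offset 50), which shrinks ratios of dim spots, and normalised by loess (span 0.3), leaving out flagged spots. Tools were R 4.3.3, limma 3.58.1 and statmod 1.5.0. Each mouse value needs both dye-swapped arrays. Probes entered a test if detected on 0.5 or more of the organ's arrays, with values of at least 2 mice. Mouse values were tested against 0, adjusted by Benjamini-Hochberg over all probes tested at 0.05. The pool is 1 control sample, and no spread among control mice enters.

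For the organ comparison, limma was run on quantile normalised intensities with flagged spots kept, since most are dim, and without a block. Keeping them had been planned as the alternative. Leaving them out, and settings without brain replicate 1, were added after seeing the data. Without that array, mouse 1 keeps its Cy5 array alone. Mice 1 to 3 gave both organs and so pair the samples by animal. Identifiers of mice 3 and 4 have 2 digits exchanged between labels and file names, but both versions group the arrays alike. Deviations of the same mouse correlated at -0.0183, -0.0065 and -0.0183, and those of unequal numbers at -0.127 to 0.134. Probes were named by RefSeq accession (961) or synonym (492). The named genes are the 5 described, the list genes called or, where none was, at least the 2 with the lowest p, and the 3 genes most correlated with each. Genes and lists were chosen with earlier results of these data known. The tests were first run on these same scans with the signal above background of randomly drawn probes multiplied by set factors. Alternatives covered background, foreground statistic, normalisation, scaling, filters, flags, dyes, channels, the authors' table, arrays and mice.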

Additional observations from a re-analysis of the deposited data

Results flagged for a closer look

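Of the groups of array and mouse values of the 5 genes with 4 to 10 values, 24 were examined for a value far from the others, and 4 held one. Chance alone would mark about 1 in 20 such groups. Array and mouse values of a spot share readings, however, so the count is not set against that rate. The Olig1 spot on brain replicate 1 had a log2 intensity of 7.25, with the next brain array at 6.58. The Tppp spot on brain replicate 1 stood at 6.28, the lowest in brain, with the next at 7.15. Brain replicate 1 also gave the highest Olig1 ratio, 0.70. The Olig2 spot on thymus replicate 8 stood at 6.92, with the next thymus array at 6.5, and it was not detected there. The Olig2 value of thymus mouse 4, which includes that array, was 6.6, with the next mouse at 6.43.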

How the results depend on the processing

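In brain, the count of probes past the threshold was 0, and 1 with the foreground median or with the mutant in Cy5 only, and 0 to 1 when single mice were left out (1 without mouse 2). In thymus it was 0, and 0 to 1 without single mice (1 without mouse 2). Of the brain means, those of Tppp ranged from 0.07 to 0.31 and those of Acan from -0.27 to -0.07 over 16 alternatives each, those of Olig1 from -0.20 to 0.38 with 4 of the opposite sign, those of Ntsr2 from -0.09 to 0.36 with 1, and those of Olig2 from -0.11 to 0.09 with 3. The thymus ratio of Ntsr2 changed sign with no background subtraction (0.0031), with flagged spots kept (0.018), in the authors' deposited table (0.25) and with the mutant in Cy3 only (0.0087), never past the threshold, and the cause was not tested. The thymus means also changed sign for Olig1 (-0.05) and Olig2 (0.05) with flagged spots kept and in the authors' deposited table (-0.09 and 0.77).

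Between the organs, 329 probes passed (239 higher in brain, 90 lower). With the mouse as a replicate block, 26 were left (21 higher, 5 lower). Mouse 4, which gave thymus alone, does not inform the blocked differences, and the block leaves fewer degrees of freedom. Without thymus mouse 4 and with no block, the count was 165. What lowered the blocked count further was not tested. The count was 212 with no background subtraction, 560 with the foreground median, 216 from the control pool channel, 85 with flagged spots left out and 601 without brain replicate 1. It was 73 to 251 without single mice, with 73 without brain mouse 2, 121 without brain mouse 3, 127, 122 and 165 without thymus mice 1, 2 and 4. The organ difference of Tppp was 0.54 to 1.04 and that of Acan -0.76 to 0.18. For Olig1 it was -0.29 to 0.04, for Olig2 -0.03 to 0.15 and for Ntsr2 -0.20 (flagged spots left out) to 0.15, with 3, 3 and 6 of 18 of the opposite sign, and -0.13 for Ntsr2 without brain replicate 1. Of 19 alternatives, Stmn2 stayed past the threshold in 19, Cntn1 and Satb1 in 18 each, lost with the block, Cd8a in 11, Camk2b in 9 and Syp in 8, with no change of direction.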
